A study of Mus musculus with 59 samples.

Results

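The 10 genes Asb2, Asb4, Asb5, Asb8, Asb10, Asb11, Asb12, Asb14, Asb15 and Asb18 were taken by symbol from a table of 47643 genes, and all 10 were present in it. They were described across 59 RNA-seq libraries of 3 muscles from female NCI Ath/nude mice aged 4 months, a strain without a thymus that accepts human tumours. All the mice carried a patient-derived human melanoma in the flank, and no group was free of tumour: one melanoma was cachectic (muscle-wasting) and the other was not. The diaphragm groups were mock-injected with vehicle or injected into the peritoneum with rFibcd1, the recombinant secreted form of the myokine Fibcd1. These were 10 libraries of the cachectic melanoma with mock, 10 with rFibcd1, 9 of the non-cachectic melanoma with mock and 10 with rFibcd1. Tibialis anterior (TA), a fast limb muscle, and soleus, a slow one, were each represented by 5 libraries of the cachectic and 5 of the non-cachectic melanoma, without rFibcd1. Each melanoma came from 1 tumour line, so cachexia and any other property of that line cannot be told apart.

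Asb proteins carry a stack of ankyrin repeats, which bind a target, and a C-terminal SOCS box, which binds elongin B and elongin C and through them cullin 5. The assembled complex is a ubiquitin ligase, and the Asb protein decides which protein it marks. Several Asb genes are expressed mainly in skeletal muscle or heart. Asb2 is the best studied of them in muscle: it directs the degradation of filamins and desmin, and too much of it reduces myofibre size. For most of the others, few targets are known.

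Expression was given in TPM, the share of a library's transcripts that a gene supplies after correction for transcript length, with every library given an equal total, so that levels can be compared between genes. The libraries matched their muscles. Myh4, the myosin of the fastest fibres, was at 7593 to 13729 TPM in TA and 7.34 to 24.9 TPM in soleus of mice with the non-cachectic melanoma, whereas Myh7, the slow myosin, was at 0.271 to 2.31 and 4288 to 5550.4 TPM. One cachectic soleus library, number 7, stood apart with 4989 TPM of Myh4. The libraries also fell into a pair of sets by Pcna-ps2, a pseudogene that was either at most 0.428 TPM or at 5.595 TPM and above. Of the diaphragm libraries, the upper set held 9 of 10 (cachectic mock), 8 of 10 (cachectic rFibcd1), 3 of 9 (non-cachectic mock) and 6 of 10 (non-cachectic rFibcd1). In both limb muscles it held every cachectic and no non-cachectic library, so there the set and the melanoma cannot be told apart. In whole-muscle RNA, fewer myofibres and less of a transcript per myofibre cannot be told apart either.

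Asb2 was the most abundant member, with a mean of 171 TPM over the 59 libraries, followed by Asb5 (137 TPM) and Asb11 (102 TPM). Asb10, Asb8, Asb14 and Asb12 had means of 70.5, 64.5, 49.04 and 32.9 TPM. Asb18 and Asb15 both averaged 17.9 TPM, and Asb4 was the scarcest at 3.79 TPM. Every member was at 1.69 TPM or above in every library, so all 10 passed the filter on low values (1 TPM in as many libraries as the smallest group). Asb16, an Asb gene outside the set, was at 47.9 to 62.3 TPM in non-cachectic TA, whereas Asb1, Asb3, Asb6, Asb7 and Asb13 had group means of at most 16.8 TPM, and Asb9 and Asb17 were not tested because almost all of their values were 0.

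**Figure D1:**
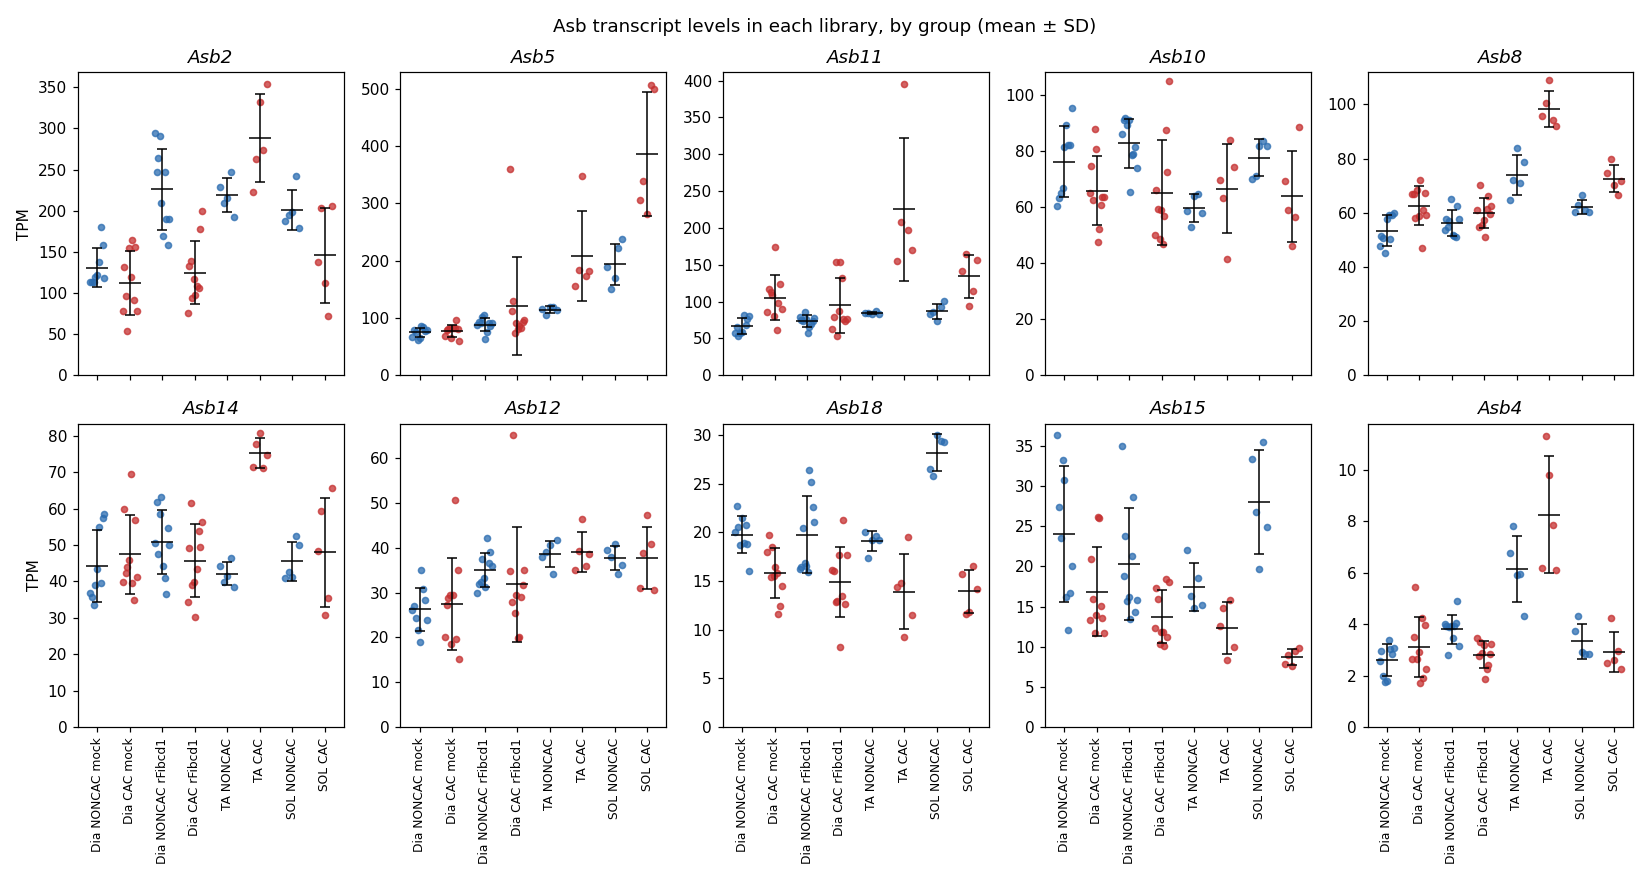
Level of each Asb gene (TPM, linear axis from 0) in every library of the 8 groups, in order of mean level. Points are libraries (blue, non-cachectic melanoma; red, cachectic melanoma), and the bar and whiskers are the mean ± SD. Asb5 is highest in cachectic soleus, Asb11, Asb8 and Asb14 in cachectic TA, and Asb15 is lowest in cachectic soleus.

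The order of the 8 groups differed between members. By group mean, Asb2, Asb4, Asb8, Asb11, Asb12 and Asb14 were highest in cachectic TA, Asb5 in cachectic soleus, Asb15 and Asb18 in non-cachectic soleus, and Asb10 in the non-cachectic rFibcd1 diaphragm. Adjacent groups in these orders overlapped in their library values in all but 3 of 70 pairs (6.73% of such pairs did not overlap over all genes at 1 TPM or more in at least 5 libraries). The 3 exceptions were all between the first and second group, where 4.27% of all genes had such a gap: Asb8 in cachectic TA (91.9 to 109 TPM) lay above non-cachectic TA (64.7 to 83.8 TPM), Asb14 in cachectic TA (71.3 to 80.9 TPM) lay above the non-cachectic rFibcd1 diaphragm (36.5 to 63.1 TPM), and Asb18 in non-cachectic soleus (25.8 to 30.03 TPM) lay above the non-cachectic mock diaphragm (16.02 to 22.7 TPM). The lowest mean of Asb4, Asb5, Asb8, Asb11 and Asb12 was in the non-cachectic mock diaphragm.

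The main question was which of these adaptors differ between mice with the cachectic and the non-cachectic melanoma. With limma on log2(TPM + 1), 2 members were higher and 1 lower in the mock diaphragm, 5 higher and 2 lower in TA, and 3 higher and 2 lower in soleus, at an adjusted p below 0.05 over all genes tested. Under rFibcd1, 3 were lower in the diaphragm and 0 higher. These counts stand beside a background in which many genes were called. Over all genes, 30.9% were higher and 2.67% lower in the mock diaphragm, 56.4% and 3.78% in TA, 17.5% and 7.54% in soleus, and 7.14% and 1.97% in the rFibcd1 diaphragm. The share of members called higher was below that of all genes in the mock diaphragm, TA and the rFibcd1 diaphragm and above it in soleus. The share called lower was above that of all genes in the 4 comparisons, but with 10 members a single call is enough for this in the mock diaphragm, where it rested on Asb18, a call lost in 9 of 39 refits without a library and with the Pcna-ps2 set as a term (-0.30, adjusted p = 0.119).

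The typical gene was itself shifted. The median log2 fold change of all genes was 0.20 in the mock diaphragm, 0.08 in the rFibcd1 diaphragm, 0.41 in TA and 0.09 in soleus, and after median-ratio scaling, which sets the typical gene equal between libraries, it was at most 0.02 in size. The mitochondrially encoded share of TPM moved with the melanoma. It was 38.96 to 44.04% in non-cachectic and 24.1 to 34.6% in cachectic soleus, 47.3 to 51.7% and 25.1 to 45.6% in TA and 41.9 to 51.9% and 32.9 to 41.6% in the mock diaphragm, without overlap in any of the 3, and 39.3 to 49.01% and 29.8 to 46.4% under rFibcd1, with overlap. Its part in the differences as deposited was not tested. Relative to the typical gene, 0 members were higher and 3 lower in the mock diaphragm (all genes: 7.39% and 8.41%), 0 and 4 in the rFibcd1 diaphragm (4.23% and 4.74%), 2 and 3 in TA (18.4% and 21.9%) and 1 and 2 in soleus (15.2% and 12.8%). The members are described below by the direction of these calls.

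**Figure D2:**
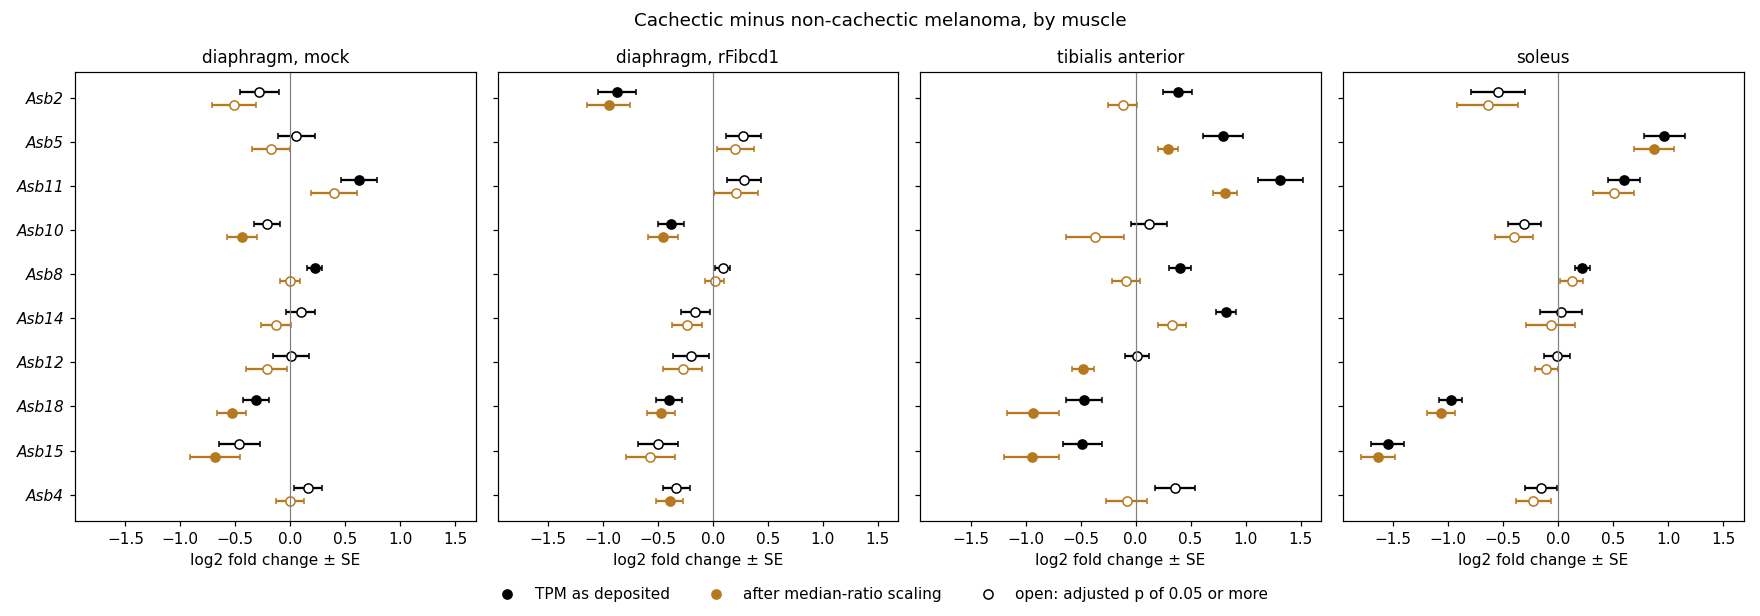
Log2 fold change (cachectic minus non-cachectic melanoma) ± SE of each member in 4 comparisons, as deposited (black) and after median-ratio scaling (brown). Filled points have an adjusted p below 0.05. Asb18 lies left of 0 in all 4 panels under both scalings, and Asb5 and Asb11 lie right of 0 in TA and soleus.

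Asb11 (chromosome X, 164436994 to 164459170, plus strand) encodes an adaptor of the endoplasmic reticulum that marks the cell-death protein Bik. In TA it was at 83.8, 83.9, 84.1, 84.5 and 87.5 TPM in the non-cachectic libraries and at 156, 170.4, 197, 208 and 395 TPM in the cachectic ones. The groups did not overlap, a gap found for 4 of 10 members and 42.8% of all genes in this direction, and the non-cachectic libraries were almost equal. Asb11 rose in TA by 1.31 ± 0.21 (SE), adjusted p = 0.000899, on the log2 scale, and by 0.81, adjusted p = 0.000463, after median-ratio scaling. In soleus it was at 73.5, 82.9, 85.9, 92.6 and 101 TPM against 94.6, 114, 141, 156 and 165 TPM, with a single overlapping cachectic library, and rose by 0.60 ± 0.15 (SE), adjusted p = 0.0137. Relative to the typical gene the soleus difference was 0.50, adjusted p = 0.066, and by Dunn's rank test its adjusted p was 0.0641. In the mock diaphragm the lowest, median and highest values were 53.8, 65.5 and 81.8 TPM in the non-cachectic and 61.03, 104 and 175 TPM in the cachectic group, and 8 of the 10 cachectic libraries lay above all the non-cachectic ones. There Asb11 rose by 0.62 ± 0.16 (SE), adjusted p = 0.00397. It kept this with the Pcna-ps2 set as a term (0.60, adjusted p = 0.0222) but not in the upper set alone or after median-ratio scaling (0.39, adjusted p = 0.202). Among non-cachectic mock libraries Asb11 was at 75.8 to 81.8 TPM in the upper set and 53.8 to 68.2 TPM in the other. With rFibcd1 the groups were 58.1 to 86.6 and 53.03 to 154 TPM, and the difference of 0.28 ± 0.16 (SE), adjusted p = 0.269, did not pass the test. The 3 calls in TA, soleus and the mock diaphragm held whichever library was left out.

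Fbxo32 and Trim63, the ubiquitin ligases atrogin-1 and MuRF1 that mark wasting muscle, are given beside the highest Asb11 levels. Cachectic TA library 8, the highest with 395 TPM of Asb11, had 789 TPM of Fbxo32 and 1376 TPM of Trim63. TA library 7, with 208 TPM of Asb11, had 498 and 702 TPM, and TA library 9, with 197 TPM of Asb11, had 138 and 277 TPM. TA library 10, with 170.4 TPM of Asb11, had 201 and 304 TPM, and TA library 6, with 156 TPM, had 200 and 319 TPM. Cachectic soleus library 7, with 165 TPM of Asb11, had 310 and 598 TPM, and soleus library 10, with 156 TPM, had 143 and 175 TPM. Cachectic mock diaphragm library 20, with 175 TPM of Asb11, had 877 and 1481 TPM. In the cachectic rFibcd1 diaphragm, libraries 3 and 11 both had 154 TPM of Asb11, with 659.5 and 52.5 TPM of Fbxo32. Trim63 was at 1209 and 161 TPM in these. In the non-cachectic groups Fbxo32 was at 37.6 to 89.9 TPM in TA, 91.3 to 137 TPM in the mock and 94.3 to 163 TPM in the rFibcd1 diaphragm, and Trim63 at 95.9 to 136, 83.4 to 118 and 96.5 to 187 TPM. In soleus, Fbxo32 was at 149.7 to 181.5 TPM in the non-cachectic and 95.6 to 310 TPM in the cachectic group, with medians of 173 and 122 TPM. Trim63 was at 108 to 129 TPM in non-cachectic and 147 to 598 TPM in cachectic soleus. Of the libraries named, diaphragm library 11 alone was within or below the non-cachectic range of its own muscle and treatment for both genes. Soleus library 10 was below that range for Fbxo32 and above it for Trim63. Without library 8, the TA fold change of Asb11 was 1.09, adjusted p = 5.7e-06.

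Asb5 (chromosome 8, 54529580 to 54587842, plus strand) was the member with the highest single-library level, 506 TPM. In soleus it was at 151, 170.4, 188, 222 and 237 TPM in the non-cachectic and 281, 306, 339, 499 and 506 TPM in the cachectic libraries, without overlap. Such a gap in this direction was found in soleus for 2 of 10 members and 13% of all genes. Asb5 rose by 0.97 ± 0.19 (SE), adjusted p = 0.00404, on the log2 scale, a ratio of means of 1.99, and by 0.87, adjusted p = 0.00582, after median-ratio scaling. In TA it was at 105, 114, 116, 119 and 119.6 TPM against 156, 173, 182, 183 and 348 TPM, again without overlap, and rose by 0.80 ± 0.18 (SE), adjusted p = 0.00584. Relative to the typical gene the rise in TA was smaller (0.29, adjusted p = 0.0247), and without library 8 it was 0.59, adjusted p = 4.87e-05. No call on Asb5 in TA or soleus was lost when a library was left out. The mock diaphragm groups overlapped, at 61.1 to 85.9 and 60.2 to 96.4 TPM, and the difference was 0.05 ± 0.17 (SE), adjusted p = 0.814. In the rFibcd1 diaphragm, cachectic library 1 had 359.6 TPM and the other 9 had 74.1 to 130.1 TPM. The difference there was 0.28 ± 0.16 (SE), adjusted p = 0.289, and 0.08, adjusted p = 0.672, without library 1. Asb5 overlaps Spcs3, a signal peptidase gene on the opposite strand, but shares 0 exon bases with it in their coding transcripts. Spcs3 was also higher in TA (0.99, adjusted p = 0.00896) and in the mock diaphragm (0.47, adjusted p = 0.00126), and differed by 0.30, adjusted p = 0.0642, in the rFibcd1 diaphragm and by 0.13, adjusted p = 0.466, in soleus.

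The promoters of Asb11 and Asb5, which rose in both limb muscles, and of Asb15 and Asb18, which fell in both, are shown as the members with the 2 largest called changes in each direction in soleus, as deposited. Asb8, which also passed as higher in both limb muscles, and Asb14, which passed in TA, are described further on without their promoters. Each promoter is the RefSeq window (GRCm38.p6) from 250 bases before to 50 bases after an annotated start site, read along the gene's strand, and each start site coincides with the first base of a GENCODE coding transcript. The capitals mark matches on either strand to CANNTG (the E-box bound by myogenic factors, of which CAGCTG is 1 form), TAAAAATA (a form of the MEF2 site) and GTAAACA (a forkhead site). The TPM values are per gene, so they do not show which start site was used.
Asb11, chrX:164436744-164437043, plus strand: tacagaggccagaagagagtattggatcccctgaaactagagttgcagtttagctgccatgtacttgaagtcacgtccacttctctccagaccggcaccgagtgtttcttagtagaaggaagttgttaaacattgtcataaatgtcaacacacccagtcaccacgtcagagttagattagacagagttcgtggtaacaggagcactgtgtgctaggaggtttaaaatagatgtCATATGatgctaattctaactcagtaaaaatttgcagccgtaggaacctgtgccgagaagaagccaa
Asb5, chr8:54550081-54550380, plus strand: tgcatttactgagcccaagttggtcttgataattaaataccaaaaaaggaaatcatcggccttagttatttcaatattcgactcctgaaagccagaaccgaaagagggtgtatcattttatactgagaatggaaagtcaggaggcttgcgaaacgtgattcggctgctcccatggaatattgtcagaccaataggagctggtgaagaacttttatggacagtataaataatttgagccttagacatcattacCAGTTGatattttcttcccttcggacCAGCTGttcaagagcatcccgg
Asb15, chr6:24527894-24528193, plus strand: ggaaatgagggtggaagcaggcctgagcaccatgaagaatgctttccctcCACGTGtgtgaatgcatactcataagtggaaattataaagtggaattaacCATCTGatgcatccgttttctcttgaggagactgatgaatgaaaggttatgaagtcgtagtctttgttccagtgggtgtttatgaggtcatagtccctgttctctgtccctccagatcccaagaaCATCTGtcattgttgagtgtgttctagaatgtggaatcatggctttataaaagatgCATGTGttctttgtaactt
Asb18, chr1:90014617-90014916, minus strand: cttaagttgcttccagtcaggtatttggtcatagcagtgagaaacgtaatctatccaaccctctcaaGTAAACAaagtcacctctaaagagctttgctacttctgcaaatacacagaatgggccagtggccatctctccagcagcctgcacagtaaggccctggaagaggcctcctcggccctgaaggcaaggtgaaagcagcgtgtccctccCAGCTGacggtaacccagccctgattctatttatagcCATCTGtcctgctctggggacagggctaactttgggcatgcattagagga
The Asb11 window held 1 CANNTG match, the Asb5 window 2, the Asb15 window 4 and the Asb18 window 2, and Asb18 alone of the 4 held a GTAAACA match. Over all 10 members RefSeq gave 15 windows. CANNTG occurred in 13 of them (86.7%, against 72.3% of all 32851 promoter windows), CAGCTG in 3 (20% against 16.3%), TAAAAATA in 3 (20% against 2.72%), GTAAACA in 1 (6.67% against 3.65%) and ACANNNTGT, the core of the glucocorticoid response element, in 0 (against 6.85%). The TAAAAATA matches were in the Asb12 window and in a pair of internal Asb5 windows. A match is a run of letters and not a bound site, and 2 windows of 1 gene are not independent.

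Asb15 (chromosome 6, 24528144 to 24573164, plus strand), a muscle adaptor linked to protein turnover in cultured myotubes, showed the largest difference between melanomas of any member. In soleus it was at 19.6, 24.9, 26.8, 33.4 and 35.5 TPM in the non-cachectic and only 7.62, 7.82, 9.01, 9.500 and 9.82 TPM in the cachectic libraries, with no overlap. The share of all genes with a gap in the lower direction was not computed, here or for Asb18. Asb15 fell by 1.55 ± 0.15 (SE) on the log2 scale, adjusted p = 6.25e-05, to 0.312 of the non-cachectic mean. In TA it was at 14.8, 15.2, 16.3, 18.5 and 22.1 TPM against 8.32, 9.99, 12.6, 14.9 and 15.8 TPM, with overlap, and the log2 fold change was -0.48 ± 0.18 (SE), adjusted p = 0.0328. After median-ratio scaling these were -1.64, adjusted p = 7.68e-05, in soleus and -0.95, adjusted p = 0.0129, in TA. The soleus call held in all 10 refits without a library, whereas the TA call was lost in 4 of 10, without cachectic library 10 or non-cachectic library 61, 62 or 64 (adjusted p of 0.0526 to 0.0829), and by Dunn's rank test (adjusted p = 0.0665).

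In the non-cachectic diaphragm, most Asb15 levels were lower in the upper Pcna-ps2 set. Among non-cachectic mock libraries it was at 16.2 to 20.01 TPM in the 3 upper-set libraries and at 12.1 to 36.4 TPM in the 6 others, of which 5 were above every upper-set library. Among non-cachectic rFibcd1 libraries the sets were apart, at 13.5 to 18.8 and 21.3 to 34.99 TPM. The cachectic groups differed in this. Under rFibcd1 the 8 upper-set libraries were at 10.4 to 18.4 TPM and the 2 others at 10.1 to 11.8 TPM, so the lower set did not lie above the upper. With mock the single lower-set library was at 25.99 TPM, above every upper-set library (11.7 to 26.2 TPM) but library 20. The difference between melanomas did not pass the test in the mock diaphragm (-0.46 ± 0.19 (SE), adjusted p = 0.0542) or under rFibcd1 (-0.50 ± 0.18 (SE), adjusted p = 0.0775). With mock it passed after median-ratio scaling (-0.68, adjusted p = 0.0342) and in 8 of 39 refits without a library, and it was -0.22, adjusted p = 0.479, with the set as a term. The part of the set in the difference between melanomas was not tested further.

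**Figure D3:**
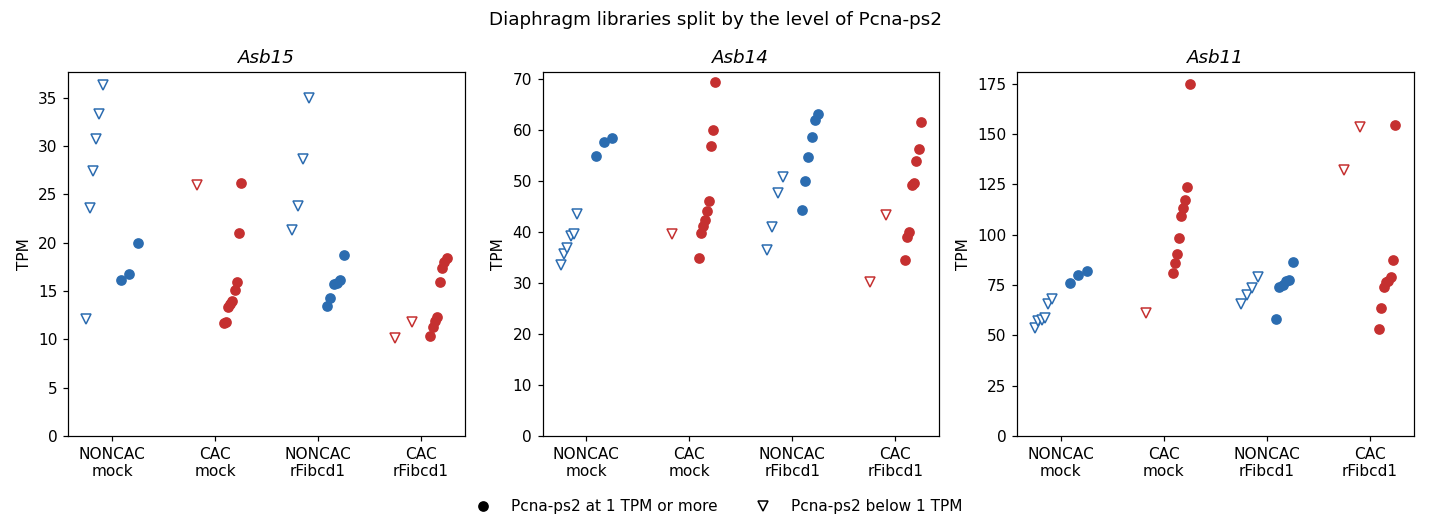
TPM of Asb15, Asb14 and Asb11 in the diaphragm libraries of each group, split by Pcna-ps2 (open triangles, below 1 TPM; filled circles, 1 TPM or more; blue, non-cachectic; red, cachectic). Within the non-cachectic groups, Asb15 is mostly higher and Asb14 mostly lower in the libraries without Pcna-ps2.

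Asb18 (chromosome 1, 89950220 to 90014666, minus strand) has no well-established target. It was the member called lower by limma in all 4 melanoma comparisons. In soleus it was at 25.8, 26.5, 29.2, 29.4 and 30.03 TPM against 11.6, 11.8, 14.1, 15.7 and 16.5 TPM, without overlap, and fell by 0.98 ± 0.11 (SE) on the log2 scale, adjusted p = 0.000159. In TA it was at 17.3, 19.2, 19.2, 19.6 and 20.03 TPM against 9.27, 11.5, 14.4, 14.8 and 19.5 TPM, where the highest cachectic library lay within the non-cachectic range, and the log2 fold change was -0.47 ± 0.16 (SE), adjusted p = 0.0283. In the mock diaphragm the lowest, median and highest values were 16.02, 20.03 and 22.7 TPM against 11.6, 15.7 and 19.8 TPM, a difference of -0.31 ± 0.12 (SE), adjusted p = 0.0368. Under rFibcd1 they were 15.9, 18.6 and 26.4 TPM against 8.25, 14.8 and 21.2 TPM, a difference of -0.40 ± 0.11 (SE), adjusted p = 0.0239. All 4 calls held after median-ratio scaling (from -1.07 in soleus to -0.47 in the rFibcd1 diaphragm). With the Pcna-ps2 set as a term, the diaphragm values were -0.30, adjusted p = 0.119, with mock and -0.39, adjusted p = 0.0275, with rFibcd1. Neither diaphragm call held in the upper set alone. By Dunn's rank test Asb18 passed in soleus and the mock diaphragm (adjusted p = 0.0451 and 0.0183) but not in TA or the rFibcd1 diaphragm (0.0665 and 0.147). The soleus call held in all 10 refits without a library. The call was lost in 5 of 10 refits in TA (without cachectic library 10 or non-cachectic library 61, 63, 64 or 65; adjusted p of up to 0.0636), in 9 of 39 in the mock diaphragm (up to 0.0788) and in 2 of 39 in the rFibcd1 diaphragm, without non-cachectic rFibcd1 library 57 (-0.35, adjusted p = 0.0583) or 58 (-0.36, adjusted p = 0.0587).

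Marker sums of other cell types are given as non-cachectic against cachectic, beginning with soleus. The summed level of 4 tendon markers was 91.4 to 119.8 TPM in the non-cachectic and 21.5 to 43.3 TPM in the cachectic libraries, and that of 5 fibroblast markers was 547 to 754 and 208 to 611 TPM. The sum of 10 myofibre markers was 68665 to 78926 TPM against 84999.8 to 101549 TPM. In TA the 5 macrophage markers summed to 9.19 to 21.2 TPM against 16.7 to 107 TPM and the 4 satellite cell markers to 2.08 to 3.604 TPM against 5.38 to 7.08 TPM. The myofibre sum in TA was 73917 to 88508 TPM against 56591 to 81699 TPM, with a lower median in the cachectic group and overlapping ranges, the 6 endothelial markers summed to 89.1 to 122 TPM against 115 to 239.5 TPM, and the fibroblast markers to 146 to 278 TPM against 223 to 451 TPM. In the mock diaphragm the macrophage markers summed to 70.1 to 164 TPM against 113 to 396 TPM. In the rFibcd1 diaphragm every list overlapped between the groups, with macrophage sums of 85.1 to 360.3 TPM against 96.5 to 809 TPM, fibroblast sums of 924 to 1369.8 TPM against 497 to 1767 TPM and myofibre sums of 51629 to 72166 TPM against 50700.5 to 97982 TPM. Endothelial and adipocyte sums overlapped between the soleus groups. So did the macrophage sums (40.5 to 53.0 TPM against 31.4 to 149 TPM, medians of 46.7 and 107 TPM) and satellite cell sums (11.3 to 15.2 TPM against 7.05 to 14.3 TPM). Melanocyte markers summed to at most 2.397 TPM anywhere. Liver markers ranged from 0.0863 to 7459.6 TPM over all libraries. Their highest sums were 419 to 7459.6 TPM in the diaphragm groups, and at most 59.5 TPM in soleus and 23.1 TPM in TA. The part of these cell types in the Asb differences was not tested. Without soleus library 7, which had high Myh4, the soleus fold changes were -1.56, adjusted p = 0.000274, for Asb15, -0.92, adjusted p = 0.000467, for Asb18, 1.00, adjusted p = 0.00804, for Asb5 and 0.52, adjusted p = 0.0308, for Asb11.

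Asb2 (chromosome 12, 103321142 to 103356001, minus strand) was called higher in TA and lower in the rFibcd1 diaphragm with the cachectic melanoma. In TA it was at 192, 209.6, 216, 229 and 248 TPM in the non-cachectic and 222, 263, 274, 332 and 354 TPM in the cachectic libraries, with overlap. It was called higher as deposited (0.38 ± 0.13 (SE), adjusted p = 0.0275), but the sign turned after median-ratio scaling (-0.12, adjusted p = 0.494), and the call was lost in 4 of 10 refits, without cachectic library 10 or non-cachectic library 62, 63 or 65 (adjusted p of 0.0569 to 0.0662). In soleus it was at 179.5, 188, 195, 199 and 243 TPM against 72.6, 112, 137, 203 and 206 TPM, and the difference did not pass the test (-0.55 ± 0.25 (SE), adjusted p = 0.124). Of the cachectic soleus libraries, 3 lay below every non-cachectic library and 2 lay within the non-cachectic range.

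In the diaphragm, Asb2 was lower with the cachectic melanoma under rFibcd1. The lowest, median and highest values were 158, 228 and 295 TPM in the non-cachectic and 75.8, 113 and 199.6 TPM in the cachectic group, so the groups overlapped at their edges. The log2 fold change was -0.88 ± 0.17 (SE), adjusted p = 0.0028. This call held after median-ratio scaling (-0.95, adjusted p = 0.00353), with the Pcna-ps2 set as a term (-0.86, adjusted p = 0.0033) and in all 39 refits without a library, but not among the upper-set libraries alone (-0.72, adjusted p = 0.299), where limma called 0 genes (1838 at an unadjusted p below 0.05), or by Dunn's rank test (-0.88, adjusted p = 0.0865). With mock, the values were 113, 119 and 179.9 TPM against 53.6, 108 and 164 TPM, and the difference was -0.28 ± 0.18 (SE), adjusted p = 0.211.

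rFibcd1 itself was compared with mock within each melanoma. In the non-cachectic diaphragm, Asb2 was the only member called, at 158 to 295 TPM with rFibcd1 and 113 to 179.9 TPM with mock (0.77 ± 0.18 (SE), adjusted p = 0.0314), where 0.35% of all genes were higher and 0.067% lower. The call ended after median-ratio scaling (0.59, adjusted p = 0.337), by Dunn's rank test (adjusted p = 0.128), without the filter, in the upper Pcna-ps2 set alone and in 10 of 39 refits without a library (adjusted p of up to 0.081). The next largest differences did not pass the test: Asb4 was at 2.79 to 4.89 TPM against 1.75 to 3.39 TPM (0.43 ± 0.12 (SE), adjusted p = 0.144) and Asb12 at 29.9 to 42.1 TPM against 18.9 to 35.1 TPM (0.42 ± 0.17 (SE), adjusted p = 0.259). In a fit of only the 2 groups compared, Asb4, Asb12 and Asb5 were called besides Asb2. In the cachectic diaphragm, 0 members were called and 0.0447% of all genes, 6 in number. There Asb2 was at 75.8 to 199.6 TPM with rFibcd1 and 53.6 to 164 TPM with mock (0.18 ± 0.17 (SE), adjusted p = 0.744), and the largest member difference, in Asb5 (0.46 ± 0.16 (SE), adjusted p = 0.309), was 0.27, adjusted p = 0.496, without library 1. Whether the response to rFibcd1 differed between melanomas was tested as an interaction, in which 0 members and 0.0223% of all genes, 3 in number, were called. The interaction was -0.59 ± 0.25 (SE), adjusted p = 0.548, for Asb2 and -0.50 ± 0.17 (SE), adjusted p = 0.507, for Asb4. At an unadjusted p below 0.05, 1180 genes passed the interaction test and 1412 the comparison in the cachectic diaphragm.

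Asb8 and Asb14 were called higher in TA, where the groups of both did not overlap. Asb8 (chromosome 15, 98134637 to 98165625, minus strand) was at 64.7, 70.9, 72.1, 78.8 and 83.8 TPM in the non-cachectic and 91.9, 94.3, 95.6, 101 and 109 TPM in the cachectic libraries (0.41 ± 0.10 (SE), adjusted p = 0.00737). It was also called in the mock diaphragm, at 45.1, 51.4 and 59.9 TPM (lowest, median and highest) against 47.1, 63.97 and 72.01 TPM (0.22 ± 0.07 (SE), adjusted p = 0.0133), and in soleus, at 60.3, 60.4, 61.02, 62.8 and 66.5 TPM against 66.7, 70.1, 71.8, 74.6 and 79.7 TPM (0.22 ± 0.07 (SE), adjusted p = 0.0401). None of the 3 held relative to the typical gene: after median-ratio scaling the sign turned in TA (-0.09) and the mock diaphragm (-0.01), and the soleus difference was 0.12, adjusted p = 0.396. In the mock diaphragm the call was also lost with the Pcna-ps2 set as a term (0.11, adjusted p = 0.262), and among non-cachectic mock libraries Asb8 was at 59.2 to 59.9 TPM in the upper set and 45.1 to 57.7 TPM in the other. The soleus call was also lost in 8 of 10 refits without a library (adjusted p of up to 0.0936; 0.18, adjusted p = 0.085, without library 7). Under rFibcd1 the diaphragm difference was 0.09 ± 0.07 (SE), adjusted p = 0.428.

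Asb14 (chromosome 14, 26894557 to 26915258, plus strand) was at 38.4, 39.96, 41.6, 44.4 and 46.5 TPM in non-cachectic and 71.3, 71.5, 74.8, 77.9 and 80.9 TPM in cachectic TA. It rose by 0.82 ± 0.09 (SE), adjusted p = 0.000141. The call held in every refit without a library, and after median-ratio scaling the difference was 0.33, adjusted p = 0.0583. In soleus and the mock diaphragm it did not pass the test. The soleus libraries were at 41.02, 41.3, 42.7, 50.2 and 52.5 TPM against 30.9, 35.3, 48.5, 59.4 and 65.8 TPM (0.02 ± 0.19 (SE), adjusted p = 0.944), the cachectic ones lying on both sides of the others. The mock diaphragm libraries were at 33.5 to 58.4 TPM against 34.97 to 69.4 TPM (0.09 ± 0.13 (SE), adjusted p = 0.595), and under rFibcd1 the difference was -0.16 ± 0.13 (SE), adjusted p = 0.459. Within the non-cachectic mock diaphragm Asb14 was at 54.9 to 58.4 TPM in the upper Pcna-ps2 set and 33.5 to 43.5 TPM in the other, the opposite order to Asb15.

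Asb10, Asb12 and Asb4 were not called between melanomas in TA, soleus or the mock diaphragm. Asb10 (chromosome 5, 24532697 to 24540978, minus strand) was at 69.9, 70.95, 81.6, 81.7 and 83.6 TPM in non-cachectic and 45.9, 56.5, 58.8, 69.2 and 88.6 TPM in cachectic soleus (-0.31 ± 0.15 (SE), adjusted p = 0.149). In TA it was at 52.8, 57.8, 58.5, 64.02 and 64.7 TPM against 41.4, 63.1, 69.8, 74.3 and 83.8 TPM (0.12 ± 0.16 (SE), adjusted p = 0.52), and without cachectic library 8, the lowest, it passed the test as higher (0.28, adjusted p = 0.0173). In soleus it passed the test as lower without cachectic library 10, the highest (-0.43, adjusted p = 0.0215). The mock diaphragm libraries were at 60.2 to 95.3 TPM against 47.4 to 87.9 TPM (-0.21 ± 0.12 (SE), adjusted p = 0.17), and Asb10 passed there as lower after median-ratio scaling (-0.44, adjusted p = 0.0271). Under rFibcd1 it was called lower, at 65.5, 83.7 and 91.8 TPM (lowest, median and highest) against 46.7, 59.03 and 105 TPM (-0.38 ± 0.12 (SE), adjusted p = 0.0386), a call lost by Dunn's rank test (adjusted p = 0.104), in the upper Pcna-ps2 set alone and in 12 of 39 refits without a library (adjusted p of up to 0.0828). With only the 2 groups compared, not all of the member calls under rFibcd1 held.

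Asb12 (chromosome X, 95470201 to 95557987, minus strand) had almost equal means in both limb muscles. It was at 38.6 and 39.1 TPM in non-cachectic and cachectic TA (0.01 ± 0.11 (SE), adjusted p = 0.927) and at 37.7 and 37.7 TPM in soleus (-0.01 ± 0.12 (SE), adjusted p = 0.944). Relative to the typical gene it was called lower in TA (-0.48, adjusted p = 0.00411). In the mock diaphragm it was at 18.9 to 35.1 TPM against 15.2 to 50.6 TPM (0.00 ± 0.17 (SE), adjusted p = 0.985) and under rFibcd1 at 29.9 to 42.1 TPM against 19.9 to 65.2 TPM (-0.20 ± 0.16 (SE), adjusted p = 0.456), in both cases with the wider spread in the cachectic group. Asb4 (chromosome 6, 5383386 to 5433022, plus strand), an adaptor known from blood vessels and placenta, was at 4.33, 5.895, 5.95, 6.75 and 7.798 TPM in non-cachectic and 6.11, 6.19, 7.86, 9.78 and 11.3 TPM in cachectic TA (0.36 ± 0.18 (SE), adjusted p = 0.102) and at 2.82 to 4.31 TPM against 2.26 to 4.23 TPM in soleus (-0.16 ± 0.15 (SE), adjusted p = 0.468). In the diaphragm it was at 1.75 to 3.39 TPM against 1.69 to 5.42 TPM with mock (0.16 ± 0.12 (SE), adjusted p = 0.31) and 2.79 to 4.89 TPM against 1.86 to 3.44 TPM with rFibcd1 (-0.33 ± 0.12 (SE), adjusted p = 0.0732). The rFibcd1 difference passed the test after median-ratio scaling (-0.39, adjusted p = 0.0397), with the Pcna-ps2 set as a term (-0.36, adjusted p = 0.048) and without cachectic mock library 8 (-0.33, adjusted p = 0.0488).

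Whether the difference between melanomas itself differed between muscles was tested in 1 fit over the mock diaphragm and both limb muscles. Between TA and soleus, 4 members were called, all with the more positive value in TA: Asb15 (difference of log2 fold changes 1.07 ± 0.33 (SE), adjusted p = 0.0233), Asb2 (0.93 ± 0.34 (SE), adjusted p = 0.0456), Asb14 (0.80 ± 0.25 (SE), adjusted p = 0.0217) and Asb18 (0.51 ± 0.19 (SE), adjusted p = 0.0474). For Asb15 and Asb18 this was a smaller fall in TA (-0.48 and -0.47) than in soleus (-1.55 and -0.98). Asb2 had opposite signs in TA (0.38) and soleus (-0.55, not called). Of all genes, 19.1% were called in this direction and 1.26% in the other. None of the 4 passed after median-ratio scaling (adjusted p of 0.292 to 0.853). With the column number as a block, which paired TA with soleus, 7 members were called, the 4 above with the same values (adjusted p of 0.000358 to 0.00738) and Asb11 (0.72, adjusted p = 0.0303), Asb4 (0.51, adjusted p = 0.0124) and Asb10 (0.43, adjusted p = 0.025). Without the block, the call on Asb2 was lost in 15 and that on Asb18 in 25 of 39 refits without a library (adjusted p of up to 0.0997 and 0.106).

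Between the diaphragm and soleus, Asb5 had the smaller melanoma effect in the diaphragm (-0.91 ± 0.20 (SE), adjusted p = 0.00977), and this held after median-ratio scaling (-1.06, adjusted p = 0.000332) and in all 39 refits. It was lost with the column number as a block (-0.85, adjusted p = 0.0526), as was the call on Asb15 (0.59, adjusted p = 0.052), whereas Asb18 stayed called (0.74, adjusted p = 0.00378) and Asb4 was called (0.59, adjusted p = 0.0231). Same-numbered diaphragm and soleus libraries deviated together in 8 of 10 pairs, with a median r of 0.255, against -0.03704 for different numbers. Without the block, Asb15 (1.09 ± 0.29 (SE), adjusted p = 0.0347) and Asb18 (0.66 ± 0.16 (SE), adjusted p = 0.02) had the less negative effect in the diaphragm, and neither call held after median-ratio scaling (adjusted p = 0.124 and 0.211). The call on Asb15 was lost in 9 of 39 refits without a library (adjusted p of up to 0.083), and that on Asb18 without cachectic soleus library 7 (0.60, adjusted p = 0.0522). Of all genes, 1.95% were called in the direction of Asb15 and Asb18 and 0.57% in that of Asb5. Between the diaphragm and TA, Asb5 (-0.74 ± 0.20 (SE), adjusted p = 0.0297) and Asb14 (-0.73 ± 0.21 (SE), adjusted p = 0.0404) had the smaller effect in the diaphragm, where 4.33% of all genes were called in this direction and 0.711% in the other. Neither held after median-ratio scaling (-0.47 and -0.47, adjusted p = 0.111 and 0.255), with the Pcna-ps2 set as a term or in a fit of all 59 libraries. The call on Asb5 was lost without cachectic TA library 8 (-0.54, adjusted p = 0.0971) or non-cachectic TA library 62 (-0.71, adjusted p = 0.0592), and that on Asb14 in 16 of 39 refits (adjusted p of up to 0.0911). With the column number as a block, Asb14 remained called (-0.54, adjusted p = 0.0416), Asb5 did not (-0.68, adjusted p = 0.0774) and Asb2 was called (-0.66, adjusted p = 0.0442).

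The muscles of mice with the non-cachectic melanoma were compared next. In TA against soleus, Asb4 (0.72 ± 0.19 (SE), adjusted p = 0.00128) and Asb8 (0.24 ± 0.09 (SE), adjusted p = 0.0169) were higher in TA as deposited. Asb5 (-0.74 ± 0.17 (SE), adjusted p = 0.000215), Asb15 (-0.64 ± 0.24 (SE), adjusted p = 0.0154), Asb18 (-0.54 ± 0.13 (SE), adjusted p = 0.000511) and Asb10 (-0.38 ± 0.16 (SE), adjusted p = 0.0389) were lower. Of all genes, 5.63% were higher and 63.9% lower in TA, with a median of -0.47. After median-ratio scaling, 6 members were higher and 0 lower in TA (all genes: 28.2% and 25.1%): Asb4 (1.27), Asb8 (0.87), Asb2 (0.76), Asb12 (0.65), Asb11 (0.59) and Asb14 (0.51). The signs of Asb10 (0.25) and Asb18 (0.07) turned, and Asb5 (-0.11) and Asb15 (-0.04) were no longer called. So Asb4 and Asb8 were called higher in TA under both scalings. Asb4 was at 4.33 to 7.798 TPM in TA and 2.82 to 4.31 TPM in soleus, without overlap. The call on Asb8 was lost without non-cachectic TA library 63 (0.20, adjusted p = 0.0643), and that on Asb10 in 6 of 39 refits without a library (adjusted p of up to 0.0882).

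**Figure D4:**
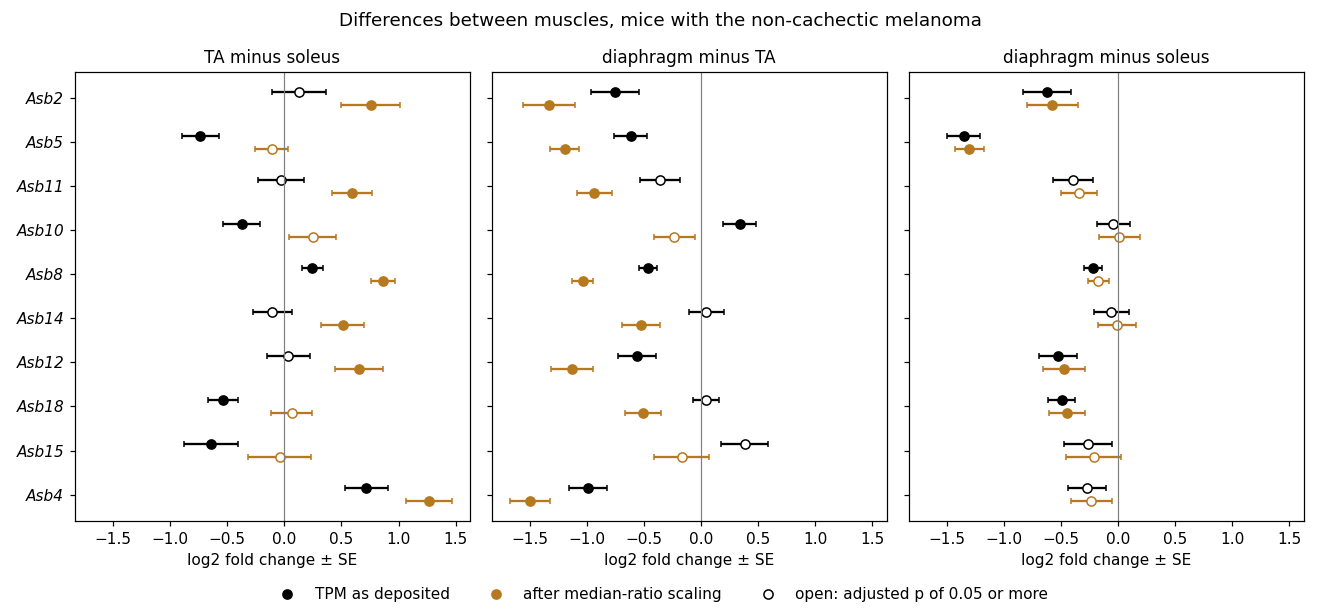
Log2 fold change ± SE of each member between muscles in mice with the non-cachectic melanoma, as deposited (black) and after median-ratio scaling (brown). Filled points have an adjusted p below 0.05. Scaling moves the members to the right in TA against soleus and to the left in the diaphragm against TA, and hardly moves them in the diaphragm against soleus.

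The diaphragm had the lowest level of several members. Against TA, 5 members were lower in the diaphragm: Asb4 (-0.99 ± 0.17 (SE), adjusted p = 3.68e-06), Asb2 (-0.75 ± 0.21 (SE), adjusted p = 0.0018), Asb5 (-0.62 ± 0.15 (SE), adjusted p = 0.000327), Asb12 (-0.56 ± 0.17 (SE), adjusted p = 0.00334) and Asb8 (-0.46 ± 0.08 (SE), adjusted p = 4.02e-06). Asb10 was higher as deposited (0.34 ± 0.14 (SE), adjusted p = 0.0348) and turned sign after median-ratio scaling (-0.24). Of all genes, 8.52% were lower and 64% higher in the diaphragm, with a median of 0.44. After scaling, 8 members were lower and 0 higher (all genes: 36.4% and 34.6%), the 5 above by at least 1.04 on the log2 scale, and Asb11, Asb14 and Asb18 besides (-0.94, -0.52 and -0.51). Asb2 was at 113 to 179.9 TPM in the diaphragm and 192 to 248 TPM in TA, and Asb5 at 61.1 to 85.9 and 105 to 119.6 TPM, both without overlap. With the column number as a block, Asb11 (-0.53, adjusted p = 0.0118) was called lower and Asb15 (0.77, adjusted p = 2.2e-05) higher, and Asb10 was not called (0.17, adjusted p = 0.142), a call also lost in 8 of 39 refits without a library. The blocked values rest on non-cachectic diaphragm libraries 61 to 65 alone, all in the lower Pcna-ps2 set. Asb15 was at 23.6 to 36.4 TPM in these and at 12.1 to 20.01 TPM in the other non-cachectic mock libraries. Blocked and unblocked values therefore rest on different libraries. Asb11 passed the test in 5 of those refits and Asb15 in 1, without non-cachectic mock library 67 (0.49, adjusted p = 0.0262).

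Against soleus, 5 members were lower in the diaphragm and 0 higher, where 22.1% of all genes were lower and 16.8% higher. Asb5 differed most, at 61.1 to 85.9 TPM in the diaphragm and 151 to 237 TPM in soleus, without overlap (-1.35 ± 0.15 (SE), adjusted p = 2.22e-09). Asb18 was at 16.02 to 22.7 TPM against 25.8 to 30.03 TPM, also without overlap (-0.49 ± 0.12 (SE), adjusted p = 0.000857). Asb2 (-0.62 ± 0.21 (SE), adjusted p = 0.0172), Asb12 (-0.52 ± 0.17 (SE), adjusted p = 0.0122) and Asb8 (-0.22 ± 0.08 (SE), adjusted p = 0.0264) followed. The median of all genes was -0.04, and after median-ratio scaling 4 were lower and 0 higher (all genes: 24% and 23.2%), Asb8 being lost (-0.17, adjusted p = 0.127). The call on Asb2 was lost without non-cachectic soleus library 64 (-0.55, adjusted p = 0.0576) and that on Asb8 without diaphragm library 64 (-0.19, adjusted p = 0.0556) or soleus library 63 (-0.20, adjusted p = 0.0767), whereas Asb11 passed without cachectic TA library 8 (-0.39, adjusted p = 0.035). With the column number as a block, Asb11 and Asb4 were also called lower in the diaphragm. In mice with the cachectic melanoma, Asb15 was 0.82 in the diaphragm against soleus (adjusted p = 0.00102), Asb18 was 0.17, adjusted p = 0.222, and Asb5 was -2.27, adjusted p = 1.73e-15. In TA against soleus of those mice, Asb15 and Asb10 turned sign (0.42, adjusted p = 0.146, and 0.06, adjusted p = 0.831).  As a reference for size, all 10 fast-fibre genes tested were higher and all 10 slow-fibre genes lower in TA than in soleus, with medians of 3.47 and -9.15.

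The rest of the ligase was examined with gene lists chosen with earlier results of these data known. Their counts stand beside the 30.9%, 56.4%, 17.5% and 7.14% of all genes called higher in the mock diaphragm, TA, soleus and the rFibcd1 diaphragm, and scaled counts and medians below keep this order. Of the cullin 5 core and the enzymes that activate it by neddylation, 6 higher and 0 lower of 14 were called in the mock diaphragm, 9 higher and 0 lower of 14 in TA, 6 higher and 0 lower of 14 in soleus and 1 higher and 0 lower of 14 in the rFibcd1 diaphragm (cachectic against non-cachectic). The medians of the list (0.19, 0.34, 0.21 and 0.12) stand beside 0.20, 0.41, 0.09 and 0.08 over all genes, and after median-ratio scaling the numbers higher and lower were 0 and 0, 0 and 3, 3 and 0 and 0 and 0. Ube2m, a conjugating enzyme for Nedd8, was called in all 4 as deposited, with 0.59 ± 0.15 (SE), adjusted p = 0.00834, in TA and 0.37 ± 0.07 (SE), adjusted p = 0.00328, in soleus. Arih2, a partner ligase of neddylated cullin 5, was at 0.56 ± 0.13 (SE), adjusted p = 0.0052, in TA and 0.37 ± 0.08 (SE), adjusted p = 0.00132, in the mock diaphragm. Between muscles, 0 higher and 10 lower of 14 were called in the diaphragm against soleus, where 16.8% of all genes were called higher and 22.1% lower, and the counts were the same after scaling. Cul5 itself was among the lower (-0.50 ± 0.10 (SE), adjusted p = 0.000174). Against TA, 3 higher and 7 lower of 14 were called in the diaphragm (all genes: 64% and 8.52%), and 1 higher and 13 lower of 14 after scaling (34.6% and 36.4%), Cul5 again among the lower (-0.90 ± 0.10 (SE), adjusted p = 1.69e-09).

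Of the other adaptors with a SOCS box, 7 higher and 0 lower of 16 were called in the mock diaphragm, 8 higher and 1 lower of 14 in TA, 5 higher and 1 lower of 15 in soleus and 2 higher and 0 lower of 16 in the rFibcd1 diaphragm, with medians of 0.28, 0.33, 0.26 and 0.11. After median-ratio scaling the numbers higher and lower were 1 and 2, 4 and 5, 5 and 1 and 2 and 0, where 7.39% and 8.41%, 18.4% and 21.9%, 15.2% and 12.8% and 4.23% and 4.74% of all genes were called. Socs3, the feedback inhibitor of cytokine signalling through JAK and STAT3, rose in all 4, by 3.78 ± 0.27 (SE), adjusted p = 5.34e-06, in TA, 2.62 ± 0.23 (SE), adjusted p = 4.27e-05, in soleus, 2.45 ± 0.30 (SE), adjusted p = 1.49e-06, in the mock diaphragm and 1.59 ± 0.29 (SE), adjusted p = 0.00263, in the rFibcd1 diaphragm, and was called in all 4 after scaling (2.24, 3.36, 2.54 and 1.52). Of the other Asb genes, 1 higher and 1 lower of 6 were called in the mock diaphragm, 3 higher and 1 lower of 6 in TA, 0 higher and 1 lower of 6 in soleus and 0 higher and 0 lower of 6 under rFibcd1, with medians of 0.10, 0.33, -0.04 and 0.00, and after scaling 0 and 1, 0 and 2, 0 and 1 and 0 and 1. Asb1 was lower in the first 3 (-0.26, -0.45 and -0.31) and remained so after scaling (-0.46, -0.88 and -0.40), whereas Asb3, Asb13 and Asb16 were higher in TA as deposited (0.51, 0.35 and 0.41), and the signs of Asb13 and Asb16 turned after scaling (-0.12 and -0.09).

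Among proteins reported as targets or partners of Asb proteins, 4 higher and 0 lower of 11 were called in the mock diaphragm, 7 higher and 0 lower of 11 in TA, 4 higher and 1 lower of 11 in soleus and 1 higher and 0 lower of 11 under rFibcd1, with medians of 0.38, 0.59, 0.33 and 0.22. After median-ratio scaling the numbers higher and lower were 2 and 0, 5 and 0, 4 and 1 and 2 and 0. Des, which encodes the intermediate filament desmin, was higher in all 4: 1.66 ± 0.17 (SE), adjusted p = 8.7e-05, in TA, 1.66 ± 0.21 (SE), adjusted p = 0.000375, in soleus, 1.05 ± 0.20 (SE), adjusted p = 0.000264, in the mock diaphragm and 0.82 ± 0.20 (SE), adjusted p = 0.00763, in the rFibcd1 diaphragm. Flnc, the muscle filamin, was higher in soleus (1.18 ± 0.19 (SE), adjusted p = 0.00153), Jak3 and Tnfrsf1b (a receptor for tumour necrosis factor) in TA (1.51 and 1.56), soleus (0.85 and 1.04) and the mock diaphragm (0.93 and 0.79), and Bik in TA (0.89 ± 0.20 (SE), adjusted p = 0.00514) and the mock diaphragm (0.39 ± 0.13 (SE), adjusted p = 0.0262). These are transcript levels, and the files hold no protein measurement. Of the known atrophy ligases, 2 higher and 0 lower of 12 were called in the mock diaphragm, 7 higher and 0 lower of 12 in TA, 3 higher and 0 lower of 12 in soleus and 0 higher and 0 lower of 12 under rFibcd1, with medians of 0.25, 0.38, -0.02 and -0.06. After scaling the numbers were 1 and 0, 4 and 3, 2 and 1 and 0 and 0, and the medians 0.04, -0.11, -0.11 and -0.13. The largest as deposited were Fbxo32 (2.32), Trim63 (2.00) and Fbxo31 (1.85) in TA.

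Of the myogenic regulators, 1 higher and 1 lower of 11 were called in the mock diaphragm, 4 higher and 0 lower of 10 in TA, 2 higher and 0 lower of 11 in soleus and 0 higher and 0 lower of 11 under rFibcd1, with medians of 0.12, 0.23, 0.05 and -0.06. After median-ratio scaling the numbers higher and lower were 1 and 2, 2 and 2, 2 and 2 and 0 and 0. Myf6 was higher in the first 3 (0.99, 1.69 and 1.45) and Myog in TA (1.15) and soleus (1.38). Of the fast-fibre genes, 3 higher and 0 lower of 10 were called in the mock diaphragm, 3 higher and 2 lower of 10 in TA, 0 higher and 0 lower of 10 in soleus and 0 higher and 0 lower of 10 under rFibcd1, and of the slow-fibre genes 2 higher and 0 lower of 10, 5 higher and 4 lower of 10, 4 higher and 0 lower of 10 and 0 higher and 0 lower of 10. After scaling the numbers were 0 and 0, 0 and 3, 0 and 0 and 0 and 0 for the fast-fibre and 0 and 0, 2 and 5, 1 and 0 and 0 and 0 for the slow-fibre genes, and the medians in TA turned from 0.18 to -0.33 and from 0.18 to -0.24.

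Finally, the genes whose pattern over the 8 group means of log2(TPM + 1) was most like each member's were listed by Pearson's r, as a description over 8 points that share libraries. The 3 nearest were Vps4a, Nabp2 and Zfp358 (r from 0.993 to 0.994) for Asb11, Sac3d1, Usp47 and Phf10 (r from 0.979 to 0.984) for Asb5 and Rbm20, Atp6v1g1 and Ppp1cb (r from 0.987 to 0.992) for Asb8. For Asb18 they were Kera, Gpam and Amigo3 (r from 0.936 to 0.973) and for Asb15 Gpam, Gm21092 and Ssx2ip (r from 0.939 to 0.957). Kera encodes keratocan and is 1 of the 4 tendon markers, and Gpam, an enzyme of glycerolipid synthesis, was near both Asb15 and Asb18. For Asb2 they were Capn7, 9330159F19Rik and Usp19 (r from 0.909 to 0.919), for Asb4 Ubxn2a, Tab2 and Gm10762 (r from 0.979 to 0.987), for Asb14 Sgsm3_1, Zfp112 and Prrc2b (r from 0.963 to 0.978), for Asb10 Rgmb, Atxn2 and Fam185a (r from 0.8997 to 0.905) and for Asb12 Dapk2, Mob1b and Ten1 (r from 0.917 to 0.946). Among the members themselves, r over the same 8 means was 0.908 between Asb15 and Asb18, 0.911 between Asb8 and Asb11 and 0.641 between Asb5 and Asb11.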

How the data were processed

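RNA of diaphragm, TA and soleus was sequenced as paired-end reads, which the authors trimmed, filtered for quality and length, aligned to GRCm38 and quantified in CLC Genomics Workbench. They deposited 1 table of TPM values, and the gene annotation is not given in the sources used here. The GEO labels name a stranded mRNA kit and the study's methods a different kit, so whether reads were assigned by strand is uncertain, and genes that overlap on opposite strands (Asb5 and Spcs3, Asb2 and Gm15523) may share reads. The deposited TPM values carry no read counts, so the depth of each library is unknown. Between 16436 and 19456 genes were above 0 per library.

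Genes at 1 TPM or more in as many libraries as the smallest group of a fit were tested on log2(TPM + 1), the scale of all fold changes, with limma 3.58.1 in R 4.3.3 (two-sided moderated test, eBayes with trend = TRUE). P-values were Benjamini-Hochberg adjusted over all genes tested. Diaphragm, TA and soleus were fitted separately (39, 10 and 10 libraries), and comparisons between muscles in 1 fit of the 39 libraries without rFibcd1. The fits were tested on simulated data. Alternatives were a pseudocount of 0.1, no filter, a mean of at least 5 TPM, median-ratio scaling, other sets of libraries in a fit, Dunn's rank test, the Pcna-ps2 set as a term or its upper set alone, cachectic in place of non-cachectic mice, the column number as a block, and leaving out each library. The labels speak of biological replicates without tying libraries to animals across muscles. The column names carry numbers, and mock diaphragm libraries 6 to 10 and 61 to 65 share theirs with TA and soleus libraries. As a block, the number compares the diaphragm with a limb muscle through these libraries alone. Those of the cachectic melanoma were all in the upper Pcna-ps2 set and those of the non-cachectic melanoma all in the lower. In blocked values the set and the melanoma therefore cannot be told apart. Deviations from the group means correlated above 0.1 between libraries of the same number in 10 of 10 pairs of diaphragm and TA (lowest r 0.133). They did so in 10 of 10 pairs of TA and soleus (lowest r 0.196) and in 8 of 10 pairs of diaphragm and soleus (lowest r 0.0101). The criterion was every pair above 0.1, which diaphragm and soleus missed. A number that pairs diaphragm with TA and TA with soleus also pairs diaphragm with soleus, so blocked values are given for all 3.

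The members and all gene lists were chosen with earlier results of these data known. All members are named, and of each list at most the 4 called genes with the largest log2 fold change in a comparison. Bik in TA was named after its values were seen. For each member, the 3 genes of at least 5 TPM in some group with the highest r are named. Positions are from GENCODE M21 and promoter windows from RefSeq, both on GRCm38.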

Additional observations from a re-analysis of the deposited data

Results flagged for a closer look

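Of 80 sets of libraries (10 members in 8 groups), 6 had 1 library far from the others by Dixon's criterion, which chance gives in about 1 in 20 groups. Asb5 was at 359.6 TPM in cachectic rFibcd1 diaphragm library 1 and at 348 TPM in cachectic TA library 8. Asb12 was at 65.2 TPM in cachectic rFibcd1 diaphragm library 3, and Asb8 was at 47.1 TPM in cachectic mock diaphragm library 22, the lowest of its group. In non-cachectic TA, Asb11 was at 87.5 TPM in library 64, within a group of narrow spread, and Asb18 at 17.3 TPM in library 62.

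The effect of the melanoma differed between muscles in 9 tests of the difference itself (limma, adjusted p below 0.05). Between diaphragm and TA these were Asb5 (-0.74) and Asb14 (-0.73). Between diaphragm and soleus they were Asb5 (-0.91), Asb15 (1.09) and Asb18 (0.66), and between TA and soleus Asb15 (1.07), Asb2 (0.93), Asb14 (0.80) and Asb18 (0.51). After median-ratio scaling, Asb5 between diaphragm and soleus was the only one of the 9 still called, and it was not called with the column number as a block (-0.85, adjusted p = 0.0526).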

How the results depend on the processing

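Of 45 called member results, 22 did not pass after median-ratio scaling, 10 of 45 in a fit of all 59 libraries, 9 of 45 without the filter, 0 of 45 with a pseudocount of 0.1, 0 of 43 with a mean of at least 5 TPM, 6 of 23 with the Pcna-ps2 set as a term, 7 of 7 in its upper set alone, 7 of 19 by Dunn's test, 2 of 24 with only the 2 groups compared and 6 of 17 in cachectic mice; the causes were not tested. Signs turned after median-ratio scaling for Asb2 in TA (-0.12), Asb8 in the mock diaphragm (-0.00511) and TA (-0.0908), Asb10 in TA against soleus (0.25) and diaphragm against TA (-0.24) and Asb18 in TA against soleus (0.0654). In cachectic mice they turned for Asb10 (0.0555) and Asb15 (0.42) in TA against soleus and Asb18 in diaphragm against soleus (0.17).

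The number of members called moved by over 1.5 times as follows. In the mock diaphragm 3 became 1 with the set as a term and 0 in the upper set. In the rFibcd1 diaphragm 3 became 0 in the upper set, 1 with only the 2 groups and 0 by Dunn's test. For rFibcd1 in the non-cachectic diaphragm 1 became 0 without the filter, with scaling, in the upper set and by Dunn's test, and 4 with only the 2 groups. In soleus 5 became 3 with scaling and with all 59 libraries. For the melanoma effect between muscles, 2 (diaphragm and TA) became 1 without the filter and 0 with scaling, all 59 libraries or the set as a term, 3 (diaphragm and soleus) became 1 with scaling and with all 59 libraries, and 4 (TA and soleus) became 2 without the filter, 0 with scaling and 2 with all 59 libraries. Leaving out 1 library gave 2 to 4 in the mock diaphragm, 1 to 4 in the rFibcd1 diaphragm, 4 to 8 in TA, 4 to 5 in soleus, 0 to 1 for rFibcd1 in the non-cachectic and 0 to 0 in the cachectic diaphragm and the interaction. It gave 0 to 3, 1 to 3 and 2 to 5 for the melanoma effect between muscles in the order above, and 5 to 6 (TA against soleus), 5 to 7 (diaphragm against TA) and 4 to 6 (diaphragm against soleus) for the muscles themselves.

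With the column number as a block, 7 members in place of 4 were called for the melanoma effect between TA and soleus. Between diaphragm and soleus the melanoma effect on Asb5 and Asb15 was not called with the block (adjusted p = 0.0526 and 0.052). Between the 2 muscles themselves, Asb11 and Asb4, not called in the unblocked fit of 3 muscles, were called lower in the diaphragm with the block (-0.56, adjusted p = 0.0144 and -0.43, adjusted p = 0.00266), Asb11 also with the set as a term and with only the 2 groups. No paired analysis was possible within a muscle because its groups share no column number. Of 85 uncalled results, 45 changed sign under some alternative, 24 were called under some alternative other than leaving out 1 library, and 3 more only when 1 library was left out. TPM without counts leaves the precision of each value unknown, which matters most for Asb4, the scarcest member.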
